A study of Rattus norvegicus with 10 samples.

Results

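Hedgehog signalling was examined through 8 core genes of the pathway: Gli1, Gli2, Gli3, Ptch1, Smo, Sufu, Hhip and Boc. The genes were looked up by symbol, and 7 of the 8 were found among the 17168 gene symbols of the count table. All 7 also passed the filter on low counts, which left 11791 genes, and Boc, a co-receptor, was not analysed here. Gli1 was picked because its level was lower in treated animals, that is, it was chosen by the contrast of RG2833 with untreated animals, so its difference between the groups is given below as a description with no test. The other genes were taken as parts of the same pathway.

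The samples were left hippocampi of 10 female TgF-344AD rats aged 11 months, 5 untreated and 5 treated with RG2833, an inhibitor of the histone deacetylases HDAC1 and HDAC3. Untreated animals ate ordinary rodent chow, and treated animals ate chow with 750 mg RG2833 per kg from 5 months of age for 6 months, with a blue food dye used to tell the foods apart. Every animal carried the transgene, which in this model drives mutant human amyloid precursor protein and presenilin 1 from a prion promoter, and every animal was perfused under ketamine and xylazine anaesthesia, so no group without the transgene enters the comparison. The transcripts of whole tissue were counted, in which fewer cells of a type and less RNA per cell cannot be told apart. The libraries held between 8764266 and 11311673 estimated counts. Markers of hippocampal excitatory neurons, apart from the scarce Lct, were present in every animal, with Slc17a7, the vesicular glutamate transporter of these neurons, between 1266 and 2344 CPM (counts scaled to a common library size).

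In hedgehog signalling a secreted ligand binds the receptor Ptch1, which otherwise holds the membrane protein Smo inactive. Active Smo, in the primary cilium, releases the Gli transcription factors from their inhibitor Sufu. Gli2 acts mainly as an activator and Gli3 mainly as a repressor, whereas Gli1 is an activator that is itself switched on by the pathway, and Gli1, Ptch1 and Hhip are its textbook transcriptional readouts. In the adult forebrain the pathway is known for maintaining neural stem cells of the dentate gyrus and for acting in astrocytes, which receive ligand from neurons.

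The DNA site that Gli factors recognise was looked for in promoters, because Ptch1, a classical Gli target, gives a comparison for Gli1. RefSeq promoter windows of the GRCr8 build, which run from 250 bases before to 50 bases after the annotated start, were matched by symbol for 7 of the 8 genes, and Gli1 had no entry. The 9-base consensus GACCACCCA, or its reverse complement TGGGTGGTC, was searched on both strands as an exact match. Among the 7 windows it occurred in 1, that of Ptch1, and among all 33469 windows it occurred in 129, or 0.385%. The 250 bases before the start of Ptch1 (chr17:1555321-1555570, plus strand) are shown with the site in capitals, beginning 172 bases before the start.
Ptch1: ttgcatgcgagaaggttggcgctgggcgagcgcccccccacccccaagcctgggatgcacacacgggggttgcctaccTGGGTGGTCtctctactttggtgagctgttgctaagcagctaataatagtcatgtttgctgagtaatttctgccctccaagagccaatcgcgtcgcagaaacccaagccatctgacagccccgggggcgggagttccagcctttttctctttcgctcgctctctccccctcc
Among 49 windows matched from a wider list of 69 hedgehog genes, described below, the site occurred in 1, that of Ulk3, a kinase that acts on Gli proteins (chr8:66888684-66888705, plus strand).
Ulk3: acgTGGGTGGTCtctaggaagt
A match is a description of these letters and no evidence of binding.

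Gli1 was the only one of the 7 genes whose groups did not overlap, as happened in either direction for 7.27% of all tested genes. In untreated animals Gli1 stood at 4.004, 11.6, 9.73, 2.14 and 9.52 CPM in replicates 1 to 5 (mean 7.40 ± 4.08, SD, n = 5). In RG2833 animals it stood at 0.859, 1.78, 1.65, 1.86 and 1.36 CPM (mean 1.504 ± 0.408, SD, n = 5). All 5 treated animals were low, whereas the untreated animals were spread widely, with replicates 2, 3 and 5 high, replicate 1 lower and replicate 4 near the treated animals. The fitted log2 fold change was -2.29 ± 0.43 (SE). Among all tested genes, 3.47% had every treated value below every untreated value, and nothing is read from Gli1 being among them, since it was picked for this difference.

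The gap between the groups was small beside the counting error of its closest animals. Gli1 rested on 23 counts in untreated replicate 4, which gives a 95% Poisson interval of 1.36 to 3.21 CPM, and on 18 counts in RG2833 replicate 4, which gives 1.104 to 2.94 CPM. These intervals overlap, so the order of the 2 animals was not resolved at this depth. The next lowest untreated animal, replicate 1, had 35 counts and an interval of 2.79 to 5.57 CPM, and the remaining 3 untreated animals had 90 to 116 counts. Without untreated replicate 4 the log2 fold change of Gli1 was -2.53. Such intervals cover counting error only, because reads without molecular identifiers are not independent molecules.

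The spread of Gli1 among untreated animals was wide. Its coefficient of variation (CV, the SD as a percentage of the mean) was 55.2% in that group, where counting alone would give 11.6%, and 2.32% of the other tested genes had a CV at least as high. Highest and lowest untreated animals differed 5.41-fold. In RG2833 animals the CV of Gli1 was 27.1%, against 25.6% from counting alone at a mean of 15.2 counts, and 8.66% of the other tested genes had a treated CV at least as high. The other 6 genes had untreated CVs between 15.004 and 33.8%.

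**Figure D1:**
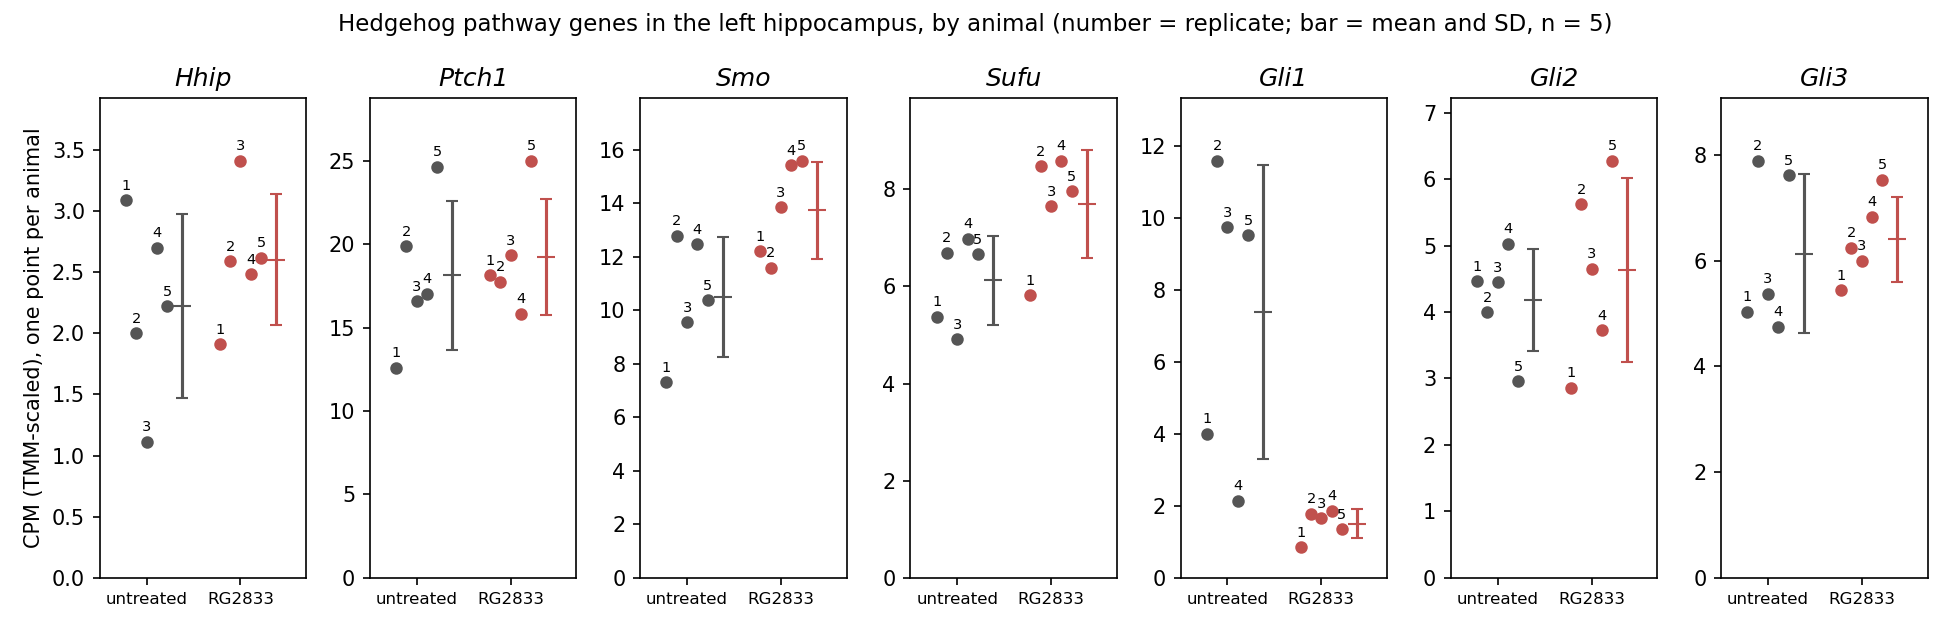
Level of each of the 7 measured hedgehog genes (vertical axes, TMM-scaled CPM from 0, a separate scale for each gene) in each untreated and RG2833 animal, with one numbered point per animal and the mean and SD of 5 animals beside the points. Gli1 runs from 2.14 to 11.6 CPM in untreated and from 0.859 to 1.86 CPM in RG2833 animals, and the groups of the other 6 genes overlap.

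Of the 6 genes other than Gli1, none was called (edgeR quasi-likelihood test; a call is an adjusted p under 0.05, by Benjamini-Hochberg over all 11791 genes), against 5.08% of all tested genes. At an unadjusted p under 0.05, 1 of the 6 passed, Smo, where 24.5% of all tested genes did. DESeq2 and limma also called 0 of the 6. Their median log2 fold change was 0.19, and that of all tested genes was -0.00.

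At the cell surface, Ptch1, the ligand receptor and a Gli target, stood at 12.6, 19.9, 16.6, 17.0 and 24.6 CPM in untreated replicates 1 to 5. In RG2833 replicates 1 to 5 it stood at 18.1, 17.7, 19.3, 15.8 and 25.0 CPM. Both groups spanned almost the same range. Treated minus untreated gave 0.08 ± 0.17 on the log2 scale (SE; edgeR, adjusted p = 0.808), with a 95% interval, not adjusted for the number of genes, of -0.29 to 0.45. Within the untreated group the order of the animals also differed from that of Gli1: replicate 4, lowest for Gli1, was in the middle for Ptch1, and replicate 1 was lowest. The Gli consensus shown above belongs to a gene whose level did not separate the groups.

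Hhip, a membrane protein that binds and sequesters the ligand and is also a Gli target, was measured on few counts, 12 to 33 per animal. It stood at 3.09, 1.998, 1.11, 2.70 and 2.22 CPM in untreated replicates 1 to 5. In RG2833 replicates 1 to 5 it stood at 1.91, 2.59, 3.41, 2.48 and 2.62 CPM. The treated animals lay within the untreated range except replicate 3, which lay just above it. On the log2 scale the difference of Hhip was 0.23 ± 0.26 (SE; edgeR, adjusted p = 0.62), with a 95% interval of -0.34 to 0.80. With the ribosomal RNA share of each library as a covariate, a fit taken up below, the value of Hhip turned to -0.74 ± 0.42 (SE; edgeR, adjusted p = 0.9999), beside -0.89 ± 0.74 (SE) for Gli1 and 0.03 ± 0.35 (SE) for Ptch1 in the same fit.

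Smo, the signal transducer, stood at 7.32, 12.8, 9.54, 12.5 and 10.4 CPM in untreated replicates 1 to 5. In RG2833 replicates 1 to 5 it stood at 12.2, 11.6, 13.8, 15.4 and 15.6 CPM. The 3 highest treated animals lay above every untreated one, and the other 2 lay within the untreated range. For Smo the fit gave a log2 difference of 0.38 ± 0.16 (SE), with a 95% interval of 0.05 to 0.72, and it did not pass after adjustment (edgeR, adjusted p = 0.154).

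Sufu, the inhibitor that holds Gli proteins in the cytoplasm, stood at 5.38, 6.69, 4.91, 6.98 and 6.66 CPM in untreated replicates 1 to 5. In RG2833 replicates 1 to 5 it stood at 5.82, 8.47, 7.65, 8.59 and 7.95 CPM. Of the treated animals, 4 lay above every untreated one, and replicate 1 lay inside the untreated range. For Sufu it gave 0.33 ± 0.15 (log2, SE; edgeR, adjusted p = 0.208), with a 95% interval of -0.00 to 0.66.

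Gli2, the main activator at the start of a response, stood at 4.46, 3.995, 4.45, 5.03 and 2.96 CPM in untreated replicates 1 to 5. In RG2833 replicates 1 to 5 it stood at 2.86, 5.62, 4.65, 3.72 and 6.28 CPM. Here the treated animals were the more widely spread group, with a CV of 29.9% against 18.5%. Its log2 difference was 0.14 ± 0.22 (SE; edgeR, adjusted p = 0.732), with a 95% interval of -0.34 to 0.63.

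Gli3, the main repressor of the pathway when ligand is absent, ranged from 4.75 to 7.89 CPM in untreated animals, with replicates 2 and 5 highest. In RG2833 animals it ranged from 5.44 to 7.53 CPM, inside the untreated range. Its log2 difference was 0.06 ± 0.18 (SE; edgeR, adjusted p = 0.858), with a 95% interval of -0.32 to 0.44. The fitted differences of the 3 Gli genes were -2.29 for Gli1, 0.14 for Gli2 and 0.06 for Gli3 on the log2 scale. Since Gli1 was picked for its fall, nothing is read from its distance to Gli2 and Gli3.

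The ribosomal RNA content of the libraries, which had no part in choosing Gli1, differed between the groups and among the untreated animals. The percentage of each library taken by ribosomal RNA, summed over the 4 loci LOC257642, Rn28s, Rn45s and Rn5-8s, was 2.91, 5.36, 5.08, 2.70 and 3.08% in untreated replicates 1 to 5 and between 1.13 and 1.96% in RG2833 animals. Untreated replicates 2 and 3, with the highest shares, had the highest Gli1, and replicate 4, with the lowest untreated share, had the lowest untreated Gli1. The order was not kept throughout, since untreated replicate 5 had a share near that of replicate 1 but Gli1 at 9.52 against 4.004 CPM. Among treated animals, replicate 1, at 1.94%, had the lowest Gli1, 0.859 CPM, and replicate 3, with the lowest share, was at 1.65 CPM. With the log2 of this share as a covariate the log2 fold change of Gli1 was -0.89 ± 0.74 (SE). Because the shares of the groups did not overlap, the share and the treatment cannot be told apart.

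The excitatory neuron markers were not called as changed, and their sums, given because they differed among the untreated animals, overlapped between the groups. The summed level of 7 markers (Slc17a7, Prox1, Wfs1, Neurod6, Neurod2, Zbtb20 and Lct) was 2088, 1573, 2197, 2988 and 2134 CPM in untreated replicates 1 to 5 and between 2915 and 3177 CPM in RG2833 animals. Untreated replicate 2, highest for Gli1, had the lowest sum, and untreated replicate 4, lowest for Gli1, was the 1 untreated animal within the treated range. Wfs1 was an uneven part of these sums, from 63.9 to 588 CPM in untreated and from 108 to 605 CPM in RG2833 animals. The order was not the reverse of Gli1 throughout, since untreated replicate 1 had a lower sum than replicates 3 and 5 and also a lower Gli1. Of the 6 markers that were tested, 0 were called, all 6 had a positive log2 fold change, with a median of 0.52, and Lct, which was not tested, was at 0 counts in 3 libraries. For Slc17a7 every treated value lay above every untreated one (0.36 ± 0.11, SE; edgeR, adjusted p = 0.0689), and for Neurod2 the groups overlapped (0.83 ± 0.23, SE; edgeR, adjusted p = 0.055). With the mean marker score as a covariate, an alternative chosen after the values were seen, the log2 fold change of Gli1 was -1.08 ± 0.53 (SE). The part of the neuronal markers in the difference of Gli1 was not tested further.

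**Figure D2:**
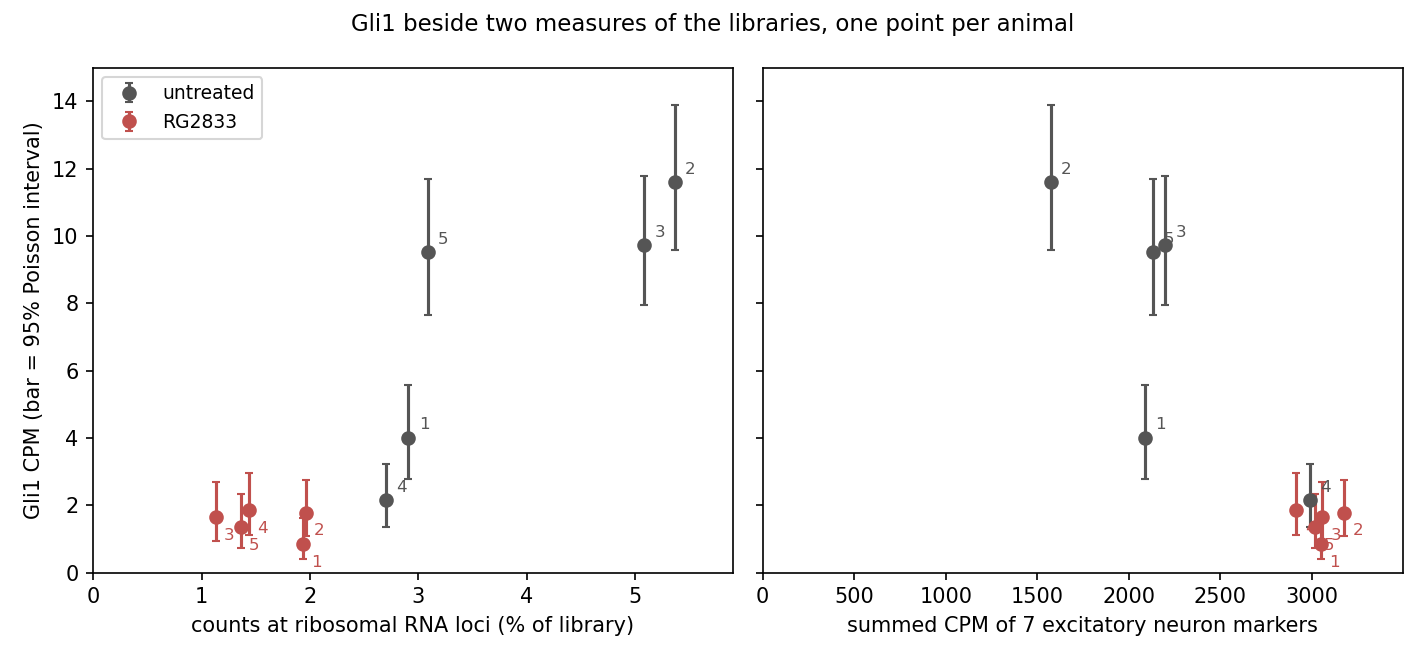
Gli1 level (vertical axis, CPM, with 95% Poisson intervals of the counts) in each of the 10 animals against the percentage of counts at ribosomal RNA loci (left) and against the summed CPM of 7 excitatory neuron markers (right). Untreated replicate 4 lies near the RG2833 animals in Gli1 and in the neuronal sum, and untreated replicates 2, 3 and 5 lie apart from them in all 3 measures.

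Oligodendrocyte markers differed widely among the untreated animals. The summed level of 8 of them was 18051, 6688, 6612, 12853 and 5873 CPM in untreated replicates 1 to 5 and between 9229 and 12488 CPM in RG2833 animals. Untreated replicates 2, 3 and 5, high for Gli1, lay below every treated animal, and replicates 1 and 4, lower for Gli1, lay above every treated animal. Of the 8 markers 0 were called, with a median log2 fold change of 0.10, and their part in the spread of Gli1 was not tested.

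Summed markers of cell types in which Gli1 can be found overlapped between the groups. Of 9 astrocyte markers tested 0 were called, and their summed level ran from 5965 to 9357 CPM without and from 6367 to 8363 CPM with treatment. For neural stem cells and newborn neurons, 0 of 7 tested markers were called, and the sums were 113 to 132 and 100.1 to 114 CPM. In that list 6 of the 7 had a negative log2 fold change, among them Dcx, a marker of newborn neurons (-0.54 ± 0.16, SE; edgeR, adjusted p = 0.0702), and Prom1, whose treated values all lay below the untreated ones (-0.34 ± 0.12, SE; edgeR, adjusted p = 0.113), whereas Sox11 was at 0.42 ± 0.24 (SE; edgeR, adjusted p = 0.287). For meningeal and perivascular fibroblasts, 0 of 10 were called, with sums of 64.4 to 219 and 58.9 to 89.3 CPM. Igf2 made up as much as 150 CPM of that sum in a single animal. Within this list the matrix proteoglycan gene Dcn stood at 18.3 ± 9.42 CPM without and 7.62 ± 2.93 CPM with treatment (SD, n = 5), a log2 difference of -1.26 ± 0.35 (SE; edgeR, adjusted p = 0.0561). For Lum, a related gene, the difference was -1.37 ± 0.56 (log2, SE; edgeR, adjusted p = 0.154), while 5 of the 10 genes had a positive value, up to 0.32 for Col3a1, and the median over the list was -0.09. With the fibroblast score as a covariate the log2 fold change of Gli1 was -1.98 ± 0.44 (SE). For mural cells 0 of 8 were called, with sums of 156 to 197 and 143 to 177 CPM. None of the markers of these 4 lists that the table holds was at 0 in any library. Among 8 tested microglia markers 1 was called, beside 5.08% of all tested genes. Aif1 fell from 36.2 ± 12.4 to 21.7 ± 0.986 CPM (SD, n = 5), or by 0.74 ± 0.20 on the log2 scale (SE; edgeR, adjusted p = 0.0496). This call lay at the threshold, the groups of Aif1 overlapped, and its values in the alternative fits are not given here. Of the 8 markers 7 had a negative log2 fold change, with a median of -0.20, whereas Cx3cr1 was at 0.20. The sums of that list overlapped, at 369 to 585 and 372 to 473 CPM. For oligodendrocyte precursors 0 of 5 tested markers were called, and all 5 had a negative log2 fold change, with a median of -0.25. Their sums overlapped, at 142 to 179 and 117 to 155 CPM. For neighbouring regions (thalamus, striatum and septum) 0 of 8 were called, 5 negative and 3 positive, with a median of -0.05. Choroid plexus markers were high in 1 animal, untreated replicate 1, at a sum of 2503 CPM against 6.87 to 49.0 CPM in the other 9, and that animal was not among those high for Gli1.

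The gene next to Gli1 was checked because the 2 overlap in the GRCr8 gene table, so reads could be shared where counting ignored the strand. Arhgap9 stood at 5.004 ± 1.59 CPM without and 5.36 ± 0.838 CPM with treatment (SD, n = 5), a log2 difference of 0.10 ± 0.22 (SE; edgeR, adjusted p = 0.826). Inhbe and Inhbc, on the other side, had 2 counts or fewer over all 10 libraries each. The low level of Gli1 in treated animals was thus not shared by Arhgap9. The strand setting of the counting is not given in the sources used here, and Gli1, an overlapping gene, remains uncertain to that extent.

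The tested genes with the profile most like Gli1 were Chrna4, Heph, Tac1, Rgs4 and Kcnj16. Likeness was the root mean square difference of log2 CPM over the 10 samples, each gene centred on its own mean, and it was 0.42, 0.51, 0.56, 0.59 and 0.59 for the 5 genes, against a median of 1.21 over all other tested genes. Since Gli1 was picked for its fall, genes that are lower in treated animals are favoured by this measure, and no test is given for them. The measure takes in all 10 animals, so a pattern over the untreated animals that these genes share with Gli1 also follows from how they were chosen. Chrna4, a nicotinic acetylcholine receptor subunit, stood at 9.95, 14.7, 14.1, 3.63 and 18.2 CPM in untreated replicates 1 to 5 and between 3.34 and 5.59 CPM in RG2833 animals. Tac1, the precursor of substance P, stood at 6.63, 9.69, 6.95, 1.58 and 10.6 CPM in untreated replicates 1 to 5 and between 1.36 and 3.62 CPM in RG2833 animals.

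The levels of the other 3 genes are given as a description. Heph, a copper-dependent ferroxidase, was at 2.79 CPM in untreated replicate 4 and at 6.52 to 9.19 CPM in the other untreated ones. Rgs4, a regulator of G protein signalling, was at 24.3 CPM in that animal, against 60.4 to 91.4 CPM in the other untreated and 23.7 to 35.5 CPM in the RG2833 animals. Kcnj16, a potassium channel subunit, was at 6.89 CPM in it, below all 5 treated animals, which ran from 7.74 to 14.1 CPM. Gli1 differed from these genes in untreated replicate 1, where it was at 4.004 CPM against a mean of 7.40 in its group, while Heph and Rgs4 were near their group means there (6.52 against 6.71 CPM and 60.4 against 66.1 CPM).

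**Figure D3:**
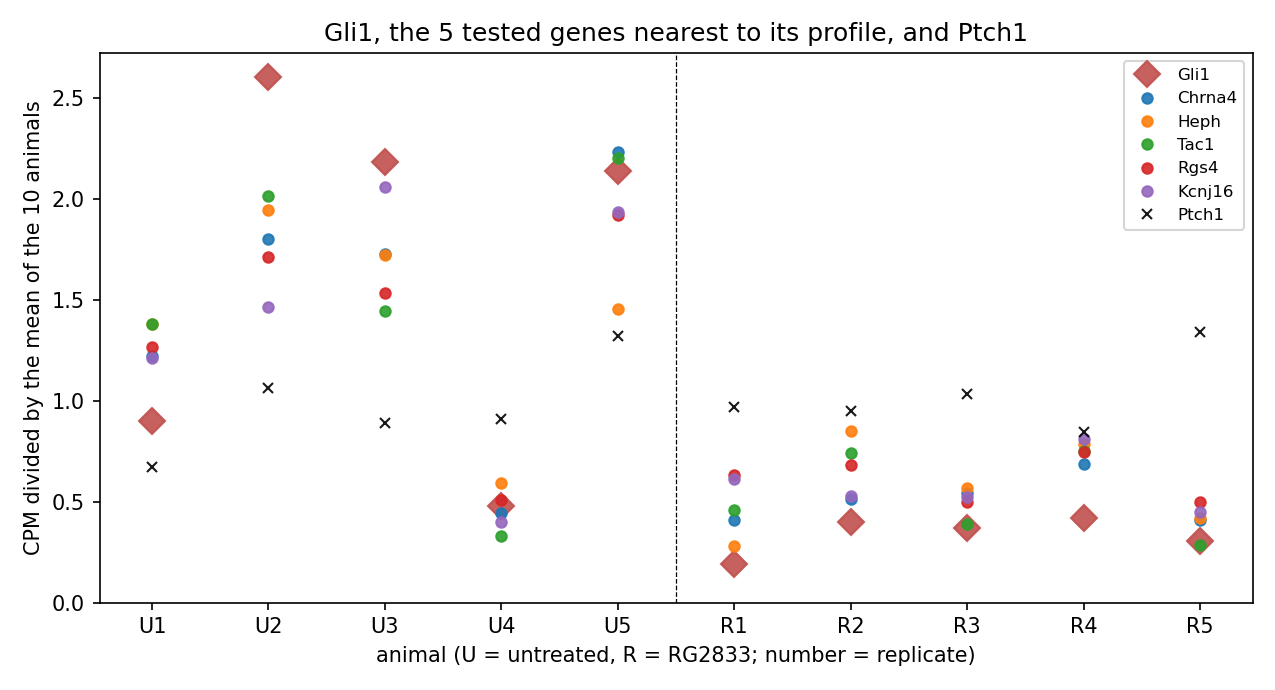
CPM of Gli1, of the 5 tested genes nearest to its profile and of Ptch1, each divided by its mean over the 10 animals (vertical axis, from 0), in each untreated (U) and RG2833 (R) animal. Gli1 and the 5 genes are high in untreated replicates 2, 3 and 5 and low in untreated replicate 4 and all RG2833 animals, whereas Ptch1 does not separate the groups.

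The wider pathway was described with a list of 69 further genes in 5 roles (70 symbols, since Adrbk1, used in the count table, and Grk2 name the same gene), of which 59 were in the table and 55 were tested. Of the 55, 2 rose, 1 fell and 52 were not called (edgeR, adjusted p under 0.05 over all genes), beside 2.41% of all tested genes called higher and 2.67% called lower. Their log2 fold changes had a median of 0.05 and ran from -1.33 to 0.44. The called genes were Gsk3a, Mgrn1 and Sparc.

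Among ligands and their release, 0 of 4 tested genes were called. Shh, the ligand made by neurons in the forebrain, was too scarce to be tested, with 2 to 9 counts in untreated and 4 to 10 counts in RG2833 animals, or 0.518 ± 0.265 and 0.584 ± 0.182 CPM (SD, n = 5). Ihh, a second ligand, never exceeded 2 counts in a library, under the floor of 3 counts. Dhh, the remaining ligand, stood at 3.80 ± 0.71 and 3.29 ± 0.709 CPM (log2 difference -0.21 ± 0.20, SE; edgeR, adjusted p = 0.5503). Disp1, which releases the lipid-bearing ligand from cells, and its relative Disp2 had log2 fold changes of 0.04 and 0.01.

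Among receptors and co-receptors, 0 of 4 tested genes were called. Cdon, a co-receptor related to Boc, stood at 10.7 ± 2.57 CPM without and 12.4 ± 1.42 CPM with treatment (SD, n = 5; 0.22 on the log2 scale), and Gpc3, a glypican that binds ligand, had a log2 fold change of 0.00. Lrp2, an endocytic receptor that takes up Shh, had the most negative value of the whole list, -1.33 ± 0.40 (SE), and did not pass (edgeR, adjusted p = 0.0692). When each animal was dropped in turn it passed in 1 of 10 fits, the one without untreated replicate 4 (-1.59; edgeR, adjusted p = 0.00384). It also passed in 1 of 14 other alternative fits, the DESeq2 Wald test (-1.34; DESeq2, adjusted p = 0.0213).

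Among regulators of Smo and the cilium, 1 of 13 tested genes was called. Mgrn1, a ubiquitin ligase that lowers Smo at the cell surface, rose from 182 ± 24.7 CPM in untreated to 232 ± 13.6 CPM in RG2833 animals (SD, n = 5), or by 0.36 ± 0.09 on the log2 scale (SE; edgeR, adjusted p = 0.048). The treated animals ran from 222 to 255 CPM, all above the untreated range of 155 to 213 CPM. With each animal dropped in turn, Mgrn1 stayed called in 2 of 10 fits, those without untreated replicate 4 or 5, and so lost its call without any of the other 8, and it was called in 6 of 14 other alternative fits. Adrbk1, the kinase that phosphorylates active Smo, had a log2 fold change of 0.11.

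Among proteins that process or regulate Gli, 1 of 22 tested genes was called. Gsk3a, 1 of the kinases that mark Gli proteins for processing and that act in many other pathways, stood at 236, 234, 245, 275 and 227 CPM in untreated replicates 1 to 5. In RG2833 replicates 1 to 5 it stood at 329, 338, 318, 342 and 323 CPM. Every treated animal lay above every untreated one. The fitted rise was 0.44 ± 0.07 on the log2 scale (SE; edgeR, adjusted p = 0.00828), and Gsk3a stayed called whichever of the 10 animals was dropped. It was no longer called with the ribosomal RNA share or the excitatory neuron score as a covariate. Prkar1a, the regulatory subunit of protein kinase A, which primes Gli proteins for the same processing, had a log2 fold change of 0.04.

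Among genes reported as hedgehog targets in some tissue, 1 of 12 tested was called. Sparc, a secreted matrix protein of astrocytes and vessels, stood at 653, 1091, 999.6, 477 and 729 CPM in untreated replicates 1 to 5 and between 408 and 572 CPM in RG2833 animals. Untreated replicates 2 and 3 were highest, as for Gli1, and untreated replicate 4 lay within the treated range of Sparc. All 7 tested endothelial markers had a negative log2 fold change (median -0.30), and 0 were called. Their summed level was 253, 328, 368, 302 and 246 CPM in untreated replicates 1 to 5 and between 226 and 258 CPM in RG2833 animals, so that untreated replicates 2 and 3 were also highest there. The order differed in other animals. Untreated replicate 4, the lowest untreated animal for Sparc, lay above every treated animal in this sum. Untreated replicate 5, lowest of its group in the sum, had more Sparc than replicates 1 and 4. The part of vessel markers in the difference of Sparc was not tested. Sparc fell by 0.77 ± 0.19 on the log2 scale (SE; edgeR, adjusted p = 0.0413), and with each animal dropped in turn it stayed called in 2 of 10 fits, those without untreated replicate 4 or 5, and in 7 of 14 other alternative fits. Ccnd1, the cyclin through which the pathway drives division in progenitor cells, stood at 42.3 ± 5.45 and 36.7 ± 3.09 CPM (SD, n = 5; -0.21 ± 0.10 on the log2 scale, SE; edgeR, adjusted p = 0.222).

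**Figure D4:**
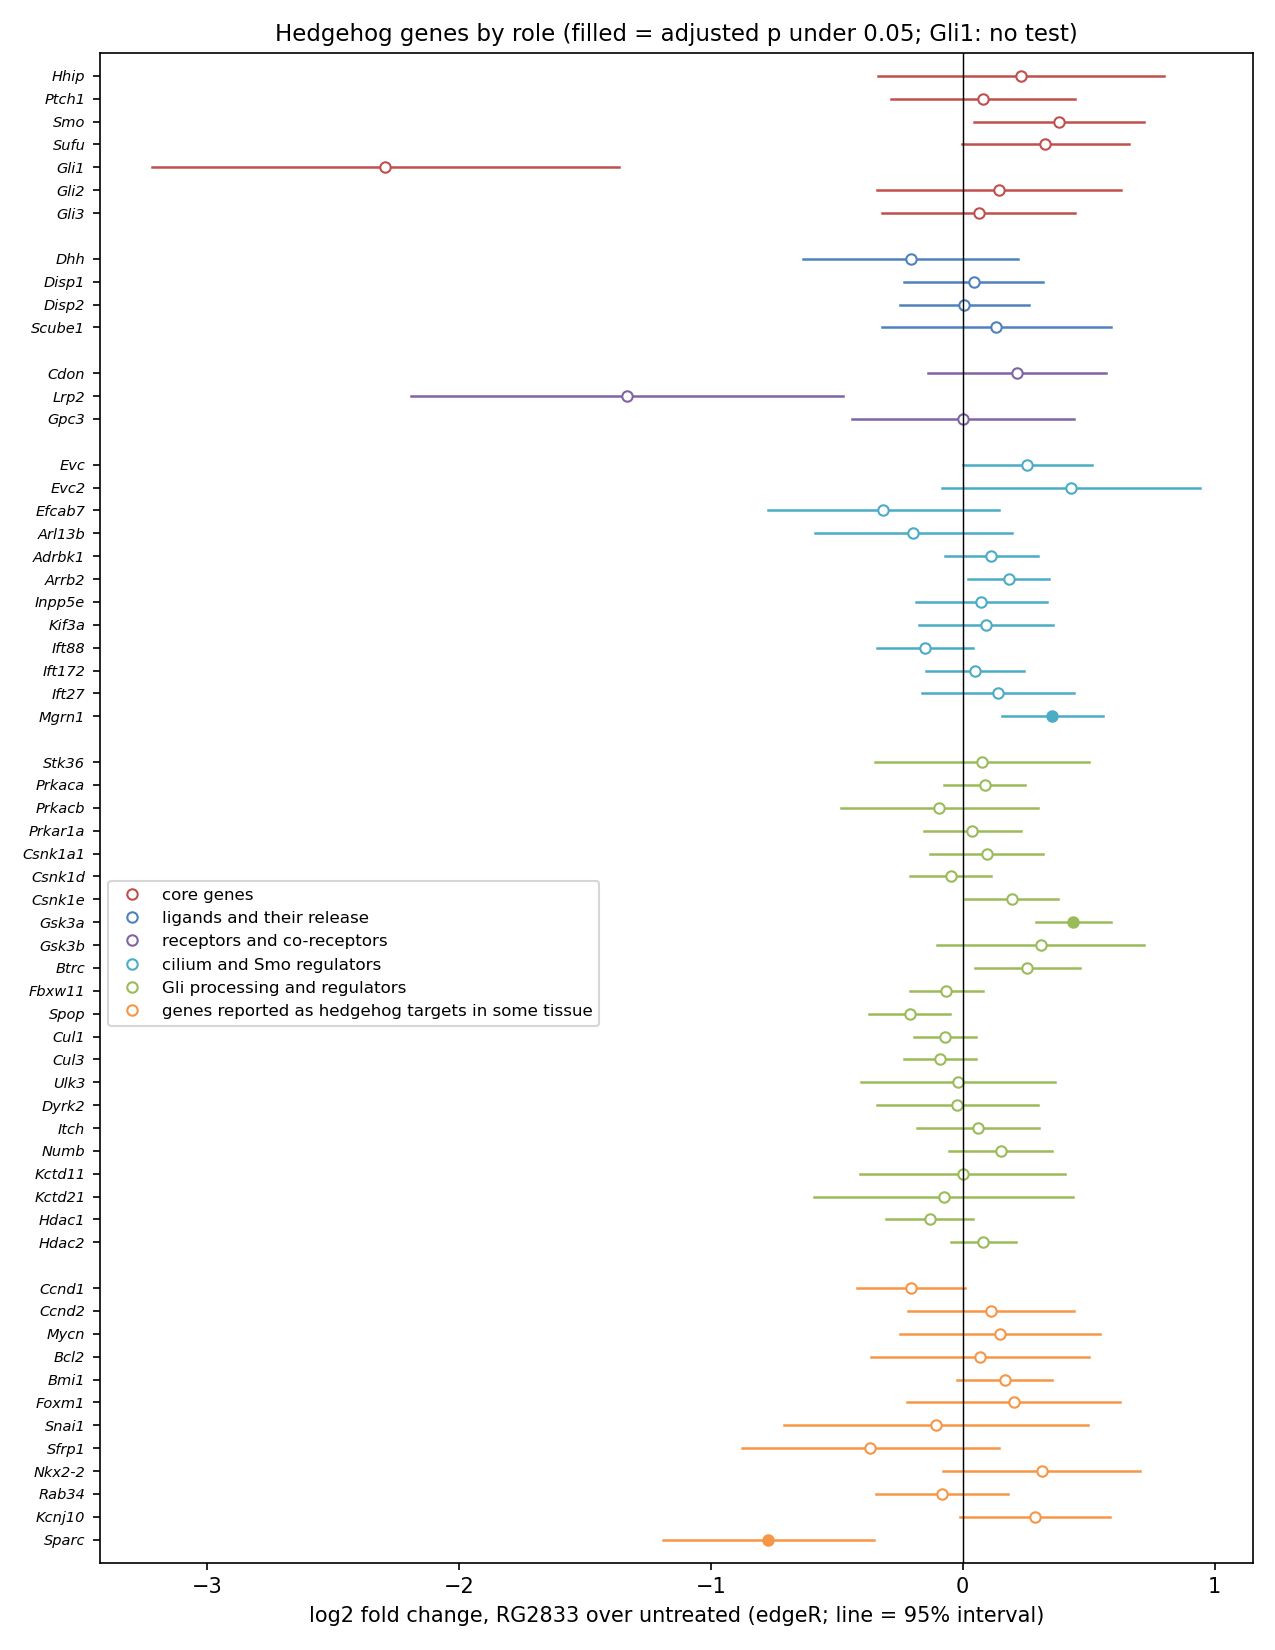
Log2 fold change of RG2833 over untreated animals (horizontal axis, edgeR, with 95% intervals not adjusted for the number of genes) for the 7 core hedgehog genes and further tested pathway genes, coloured by role, with filled points for genes at an adjusted p under 0.05. Gli1, described without a test, lies at -2.29, Gsk3a (0.44) and Mgrn1 (0.36) are filled above 0 and Sparc (-0.77) is filled below 0. The interval drawn for Gli1 is not to be read as a test, since Gli1 was picked for its fall.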

How the data were processed

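Left hippocampus mRNA of 10 rats was measured with a strand-specific kit, per the labels' protocols. The authors deposited estimated counts per gene (RSEM, per the file name) and a normalized signal, CPM after TMM scaling per the file name. Tools named in the submitters' processing notes are bcl2fastq 2.17, Bowtie2 2.1.0, RSEM 1.2.15 and edgeR, with build rn6; the annotation is not given in the sources used here. Columns were matched to samples by title.

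Estimated counts were rounded, filtered with filterByExpr and TMM-scaled. RG2833 was compared with untreated in edgeR 4.0.16 (quasi-likelihood test; R 4.3.3; 5 animals against 5, no covariate), with Benjamini-Hochberg adjustment over 11791 genes. SE is the log2 difference over the root of the F statistic. CPM values use the same scaling, log2 CPM a prior count of 2, and 3 counts, the floor, were 0.268 to 0.343 CPM. Alternatives used DESeq2 1.42.0 and limma 3.58.1.

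Members and lists were chosen with earlier results of these data known. Named were all measured members, called pathway genes, the 2 with the highest mean CPM in each role, and the 5 nearest profiles to Gli1; Shh, Ihh, Dhh, Lrp2, Ulk3, the single cell type markers given and the neighbours of Gli1 were named after their values were seen. The results of 2 genes on the pathway list, counted among those tested, are not reported here. Replicate numbers name different animals, and correlations of same-numbered deviations ran from -0.32 to 0.15, so the comparison is unpaired.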

Additional observations from a re-analysis of the deposited data

How the results depend on the processing

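None of the 6 core genes other than Gli1 was called under any of the 14 alternative fits or the 10 fits that left out one animal (smallest edgeR adjusted p 0.0864, for Smo without untreated replicate 4). Gli1 stayed negative wherever it had a value. Because it was picked for its fall, its sign and range in these fits are a description and no support. Smo and Sufu kept their direction throughout, whereas that of Ptch1 turned in 3 fits and those of Gli2, Gli3 and Hhip in 2 each, with no call (Hhip was -0.74 with the ribosomal RNA share and -0.11 with the excitatory neuron score). A mean count of at least 50 removed Gli1, Gli2 and Hhip. The log2 fold change of Gli1 was -1.58 in limma with a pseudocount of 1, whose construction shrinks low genes, -0.89 with the ribosomal RNA share and -1.08 with the excitatory neuron score, and it ran from -2.53 to -2.07 when one animal was left out. The 599 genes called in all became 1286 with DESeq2's Wald test, 180 with the replicate block, 82 with the fibroblast score, 146 with the choroid plexus score, 5 with the excitatory neuron score and 2 with the ribosomal RNA share, and 100 to 1545 when one animal was left out (lowest without RG2833 replicate 5, highest without untreated replicate 4). The 3 called pathway genes became 5 with DESeq2's Wald test, 1 with the replicate block, the fibroblast score or the choroid plexus score, 0 with the excitatory neuron score or the ribosomal RNA share, and 1 to 4 when one animal was left out. The cause was not tested. The replicate block changed no call of a core gene, and Gli1 was -2.16 with it. With library totals only, 228 of 595 calls were higher, against 284 of 599. The excitatory neuron score was added after the data were seen. Low counts limit Hhip, Shh and treated Gli1.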
